A study of Mus musculus with 10 samples.

Results

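The genes described here are 10 germline and meiosis genes of the mouse, chosen by name from 21938 protein-coding genes of chromosomes 1 to 19, X and Y: Ddx4, Dazl, Mael, Sycp1, Sycp3, Stag3, Hormad1, Stra8, Slc25a31 and Tex101. They were examined in F123 mouse embryonic stem cells (mESC), a line from a cross of Mus musculus castaneus and S129/SvJae, which was grown on irradiated CF1 mouse embryonic fibroblast feeders and then passaged once without feeders, on gelatin with LIF and knockout serum replacement. The cells were untreated, and the study has no second condition to compare them with, so each gene was compared with the other gene starts of the same 2 lists. One list holds 33487 H3K4me3 ChIP-seq peaks, from 2 replicates of 2000000 fixed cells each, and the other holds 179109 ATAC-seq peaks, from 2 replicates of 100000 cells each. PLAC-seq for H3K4me3 and CTCF, and the input of the ChIP-seq, were not analysed here.

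Each list stands for both replicates, so no value below has a spread between replicates and no test was possible. All differences are descriptions of these 2 lists. Neither list carries read counts, and the depth behind each peak is unknown. H3K4me3 strength is the authors' fold enrichment over the background of their peak caller, with its −log10 q. The ATAC-seq list holds positions only, so an ATAC-seq peak is described by its width. A gene counted as carrying a peak when the nearest base of the peak lay within 2 Kb of its start, the 5′ end of its GENCODE M21 record. Of 7 embryonic stem cell markers, 6 carried an H3K4me3 peak, from Nanog at 14.9-fold to Sox2 at 42.9-fold. Esrrb had none within 2 Kb of the annotated start used here. All 7 carried an ATAC-seq peak. Of 7 fibroblast markers, which feeder cells would express, 5 carried an H3K4me3 peak, at 13.9-fold to 28.2-fold, while Col3a1 and Postn had none. The part of feeder cells in the peaks at germline genes was not tested.

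H3K4me3, trimethylation of lysine 4 of histone H3, marks the starts of active and poised genes, and unmethylated CpG islands tend to carry it in stem cells whether or not their gene is transcribed. ATAC-seq marks DNA that the Tn5 transposase can reach. Many genes of germ cells and meiosis have CpG-island promoters and are known to be silent outside the germline. In embryonic stem cells several of these promoters are known to be kept silent by DNA methylation and by the non-canonical Polycomb complex PRC1.6, whose subunits MGA with MAX and E2F6 with TFDP1 recognise an E-box and an E2F site. Neither DNA methylation nor the binding of these factors was measured in the data used here.

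The promoter sequences below show how CpG-rich these starts are and where the letters of those sites lie. They are RefSeq promoters of GRCm38.p6, which has the coordinates of mm10, read 5′ to 3′ on the strand of the gene with the 250 bases before the RefSeq start and the first 30 bases from it. Capitals mark the E2F core TCCCGC, or GCGGGA where it lies on the other strand, and the palindromic E-box CACGTG. Sycp3, Hormad1, Mael, Slc25a31 and Stag3 are shown because they hold both sets of letters and span the range of H3K4me3 strengths, and Dazl and Tex101 because they hold neither. The Sycp3 stretch is chr10:88459337-88459616 on the plus strand, that of Hormad1 chr3:95559427-95559706 on the plus strand, and that of Mael chr1:166238715-166238994 on the minus strand. The Slc25a31 stretch is chr3:40708621-40708900 on the plus strand, that of Stag3 chr5:138280259-138280538 on the plus strand, that of Dazl chr17:50293591-50293870 on the minus strand, and that of Tex101 chr7:24672021-24672300 on the minus strand.
Sycp3: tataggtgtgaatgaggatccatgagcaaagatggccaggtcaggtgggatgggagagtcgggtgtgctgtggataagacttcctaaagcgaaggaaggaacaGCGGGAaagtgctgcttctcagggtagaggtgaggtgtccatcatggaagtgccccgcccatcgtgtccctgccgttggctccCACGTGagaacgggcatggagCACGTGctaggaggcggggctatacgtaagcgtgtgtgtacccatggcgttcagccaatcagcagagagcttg
Hormad1: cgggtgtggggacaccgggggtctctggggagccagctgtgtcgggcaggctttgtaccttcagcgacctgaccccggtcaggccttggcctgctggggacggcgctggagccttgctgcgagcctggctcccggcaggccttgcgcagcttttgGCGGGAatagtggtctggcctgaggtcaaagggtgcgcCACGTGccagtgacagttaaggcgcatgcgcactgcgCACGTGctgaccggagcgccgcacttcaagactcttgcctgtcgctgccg
Mael: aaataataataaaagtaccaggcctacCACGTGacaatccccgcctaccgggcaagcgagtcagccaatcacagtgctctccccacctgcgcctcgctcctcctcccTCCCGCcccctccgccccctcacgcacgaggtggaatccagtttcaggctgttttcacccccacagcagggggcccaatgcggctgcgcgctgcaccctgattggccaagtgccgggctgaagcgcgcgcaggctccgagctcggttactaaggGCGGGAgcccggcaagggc
Slc25a31: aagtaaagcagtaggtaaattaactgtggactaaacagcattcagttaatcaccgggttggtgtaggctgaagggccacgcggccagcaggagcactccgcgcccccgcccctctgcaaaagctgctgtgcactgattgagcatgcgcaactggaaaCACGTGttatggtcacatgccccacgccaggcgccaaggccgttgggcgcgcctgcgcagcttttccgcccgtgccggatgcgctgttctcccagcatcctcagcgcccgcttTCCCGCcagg
Stag3: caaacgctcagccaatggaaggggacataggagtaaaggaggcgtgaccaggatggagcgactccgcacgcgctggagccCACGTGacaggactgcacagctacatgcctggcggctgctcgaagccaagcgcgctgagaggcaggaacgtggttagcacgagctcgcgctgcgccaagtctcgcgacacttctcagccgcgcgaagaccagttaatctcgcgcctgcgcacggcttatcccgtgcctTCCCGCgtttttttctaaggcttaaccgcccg
Dazl: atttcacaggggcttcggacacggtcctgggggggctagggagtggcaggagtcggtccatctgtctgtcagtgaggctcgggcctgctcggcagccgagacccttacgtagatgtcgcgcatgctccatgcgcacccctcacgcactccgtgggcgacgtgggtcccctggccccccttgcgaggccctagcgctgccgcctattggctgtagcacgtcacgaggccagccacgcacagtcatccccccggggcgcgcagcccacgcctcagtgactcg
Tex101: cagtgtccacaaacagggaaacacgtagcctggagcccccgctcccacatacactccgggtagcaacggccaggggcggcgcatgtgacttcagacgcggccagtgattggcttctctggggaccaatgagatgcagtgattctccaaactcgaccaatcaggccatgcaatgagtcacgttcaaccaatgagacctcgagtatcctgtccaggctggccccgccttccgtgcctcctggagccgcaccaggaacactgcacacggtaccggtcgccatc

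All 10 genes matched 1 or more promoters of the RefSeq table, and the one nearest to the gene start was used. Both sets of letters occurred in the 300-base promoters of 7 of the 10 genes, namely Ddx4, Sycp1, Sycp3, Mael, Stag3, Hormad1 and Slc25a31. Among all 32851 promoters of the table, 20.0% held the E2F core, 7.15% the E-box and 1.99% both, and among the 12398 promoters of genes with a high-CpG start these shares were 37.5%, 10.2% and 4.03%. Sycp3 and Hormad1 held 2 E-boxes each, and Mael 2 E2F cores. In Ddx4 the E2F core began at -136 and the E-box at -29 from the RefSeq start, and in Sycp1 they began at +2 and -94. All 17 matches in these promoters lay wholly under an ATAC-seq peak, and 12 of them also lay wholly under an H3K4me3 peak. An ATAC-seq peak covered the start of each of these 7 genes, and 99.7% of high-CpG genes had one within 2 Kb. The share of such matches under a peak in other promoters was not counted, so 17 of 17 does not set these promoters apart. The T-box core GGTGTGA, searched on both strands, occurred only in Sycp3 among the 10 and in 3.98% of all promoters of the table. A match is a description of the letters and not a bound site, and Dazl, Stra8 and Tex101 lacking both says only that these letters are not in their windows.

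H3K4me3 was called within 2 Kb of 9 of the 10 starts, against 66.4% of all protein-coding genes. An ATAC-seq peak lay within 2 Kb of all 10, against 74.6%, and both lay near 9 of the 10, against 65.9%. Tex101 was the gene with an ATAC-seq peak alone, a state of 8.65% of protein-coding genes. These shares follow CpG content. A start was called high-CpG when an interval of 500 bp between 500 bp upstream and 2 Kb downstream had an observed/expected CpG ratio of at least 0.6 and a GC content of at least 55%, which held for 9 of the 10 genes and for 58.1% of all protein-coding genes. Of the 12755 high-CpG genes, 98.8% carried H3K4me3 and 99.7% an ATAC-seq peak. The 9 of 9 high-CpG germline genes with both peaks are therefore near the background of 98.7%, and presence alone does not set them apart from other high-CpG starts. Tex101, with a low-CpG start, fell in the class where 6.7% of genes carried H3K4me3 and 24.5% an ATAC-seq peak.

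**Figure D1:**
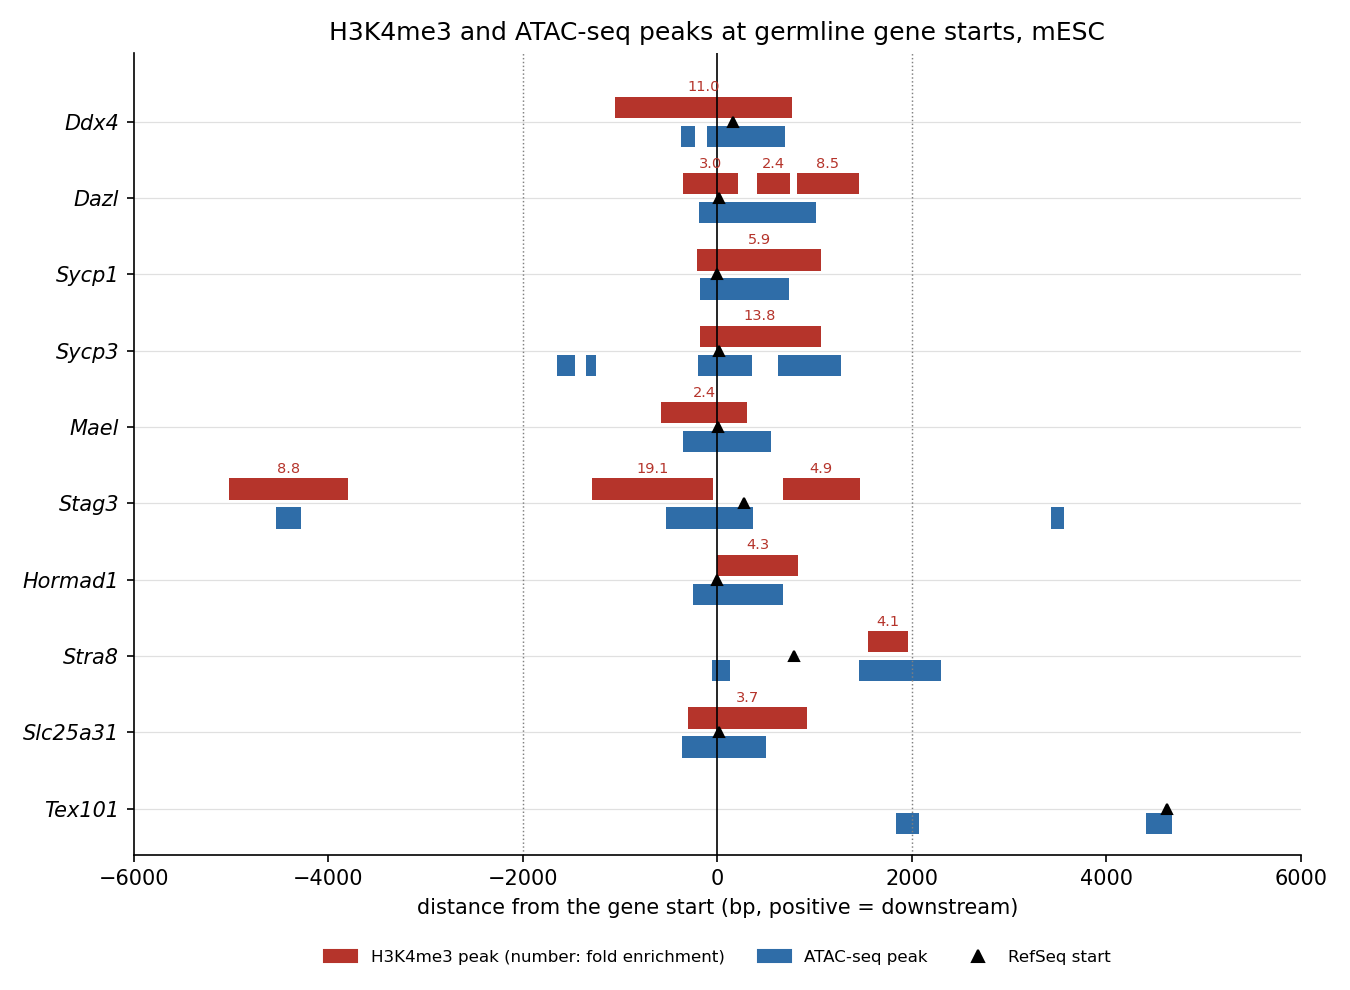
Peaks within 6000 bp of the start of each of the 10 germline genes. The horizontal axis is the distance from the gene start in bp, positive downstream, and dotted lines mark the 2000 bp limits. Red bars are H3K4me3 peaks with their fold enrichment, blue bars ATAC-seq peaks and triangles RefSeq starts. Most genes have 1 red bar over or beside a blue bar at the start, Stag3 has its red bars on either side of the start, Stra8 has its red bar downstream, and Tex101 has blue bars only.

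The germline genes differed from most other high-CpG starts in how strong and how wide their H3K4me3 peaks were. Gene expression was not among the data used here, so high-CpG genes of like expression could not be set beside them. The strongest peak of each of the 9 marked genes had a fold enrichment of 2.42 to 19.14, with a median of 5.88, against a median of 32.7 over the 12602 high-CpG genes with a peak and of 30.5 over all 14576 marked protein-coding genes. For 8 of the 9 the fold was under 15.8, the 10th percentile of high-CpG genes, which holds 10.0% of them by its definition. Stag3 was the exception at 19.14, and 1933 (15.3%) of the marked high-CpG genes had a fold at or under that. The width of the strongest peaks of the 9 ran from 407 to 1827 bp, and its median was 1227 bp against 2263 bp for high-CpG genes. The strongest peak of 8 of the 9 was narrower than 1338 bp, as it was in 9.99% of marked high-CpG genes, and Ddx4 was the exception. Dazl was counted by the strongest of its 3 peaks, which summed to 1552 bp. Widths were not compared among genes of like fold. The ATAC-seq peaks differed less in width. In the 9 high-CpG germline genes the widest ATAC-seq peak measured 647 to 1200 bp, and in 8 of them it was below the high-CpG median of 953 bp. At Sycp3 and Stra8 the widest peak lay downstream of the start, and narrower peaks of 556 and 186 bp covered it. The median over all 10 genes, with the low-CpG Tex101, was 879 bp, against 874 bp for all protein-coding genes with a peak. That reference spans all CpG classes, with a median of 316.5 bp over low-CpG genes, so it is not matched.

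**Figure D2:**
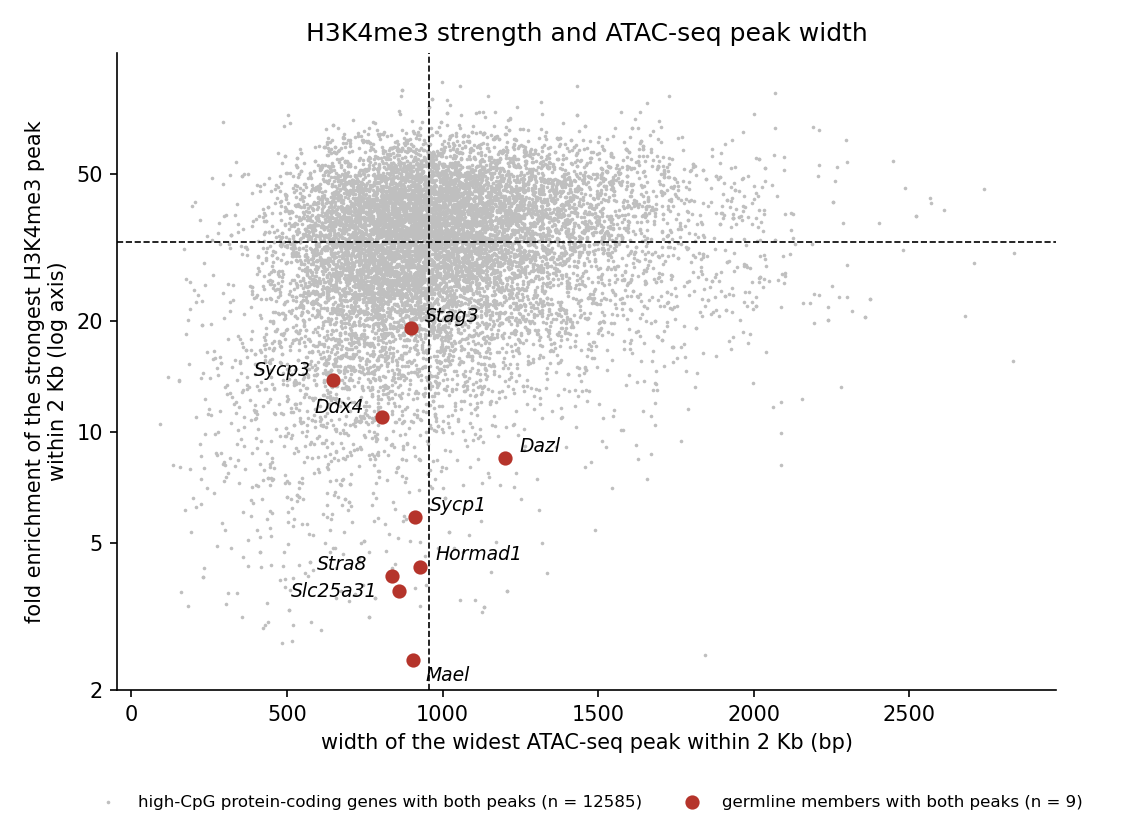
Fold enrichment of the strongest H3K4me3 peak within 2 Kb (vertical, log axis) against the width in bp of the widest ATAC-seq peak within 2 Kb (horizontal), for 12585 high-CpG genes with both peaks (grey) and the 9 germline genes with both (red). Dashed lines are the medians of the grey points. All 9 red points lie below the horizontal median line, while on the width axis 8 lie left of the median and Dazl right of it, from 647 to 1200 bp.

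Setting genes of like ATAC-seq width side by side gave the same picture. In 8271 high-CpG genes the widest ATAC-seq peak was as wide as in the high-CpG germline genes, 647 to 1200 bp, and 0.556% of them had no H3K4me3 peak. The median fold of the others was 32.8. Within this group the fold of Mael was the lowest, Slc25a31 exceeded 0.17%, Stra8 0.23%, Hormad1 0.29% and Sycp1 0.74% of the genes. Dazl exceeded 1.62%, Ddx4 3.16%, Sycp3 5.76% and Stag3 13.5%. A nearby gene can lend its peak to a start, since 14.3% of protein-coding genes have another protein-coding start within 2 Kb. Among the 10 germline genes this was so for Stag3 alone, and high-CpG genes without such a neighbour had a median fold of 31.7.

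Ddx4 and Dazl encode RNA-binding proteins of germ cells. DDX4, the mouse VASA homologue, is a DEAD-box RNA helicase, and DAZL binds messenger RNA and promotes its translation in germ cells. Ddx4 starts at position 112652475 of chromosome 13 on the minus strand, and its single H3K4me3 peak, chr13:112651704-112653530, ran from -1055 to +771 bp of that start. It had a fold of 10.97 and a −log10 q of 68.9, and with 1827 bp it was the widest H3K4me3 peak of the 10 genes. Its fold exceeded 4.22% of marked high-CpG genes. Of the peak, 1055 bp lay outside the gene, 200 bp in exons without coding bases and 572 bp in an intron. An ATAC-seq peak of 804 bp, chr13:112651777-112652580, covered the start, and another of 143 bp lay 227 bp upstream, both wholly under the H3K4me3 peak.

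Dazl was the only gene of the 10 with 3 separate H3K4me3 peaks, where 12.4% of marked protein-coding genes have 2 or more. The peak over the start, chr17:50293424-50293986, had a fold of 2.97 and the next, at +404 to +751 bp, a fold of 2.44. The strongest, chr17:50292180-50292820, lay at +816 to +1456 bp, wholly within an intron, with a fold of 8.51 and a −log10 q of 52.4. The strong H3K4me3 peak of Dazl was thus beside the gene start and not on it. However, another protein-coding transcript of Dazl starts at +744 bp, under the second peak and shortly before the strongest one. The sequence of the strongest peak had a GC content of 41.0%, against 76.4% and 63.8% in the peaks at lower fold. Of its 641 bp, 194 lay under the ATAC-seq peak. That ATAC-seq peak, chr17:50292627-50293826, was 1200 bp wide, the widest at any of the 10 starts and wider than in 77.1% of high-CpG genes with one. The 3 H3K4me3 peaks summed to 1552 bp. The nearest other H3K4me3 peak was 102412 bp from the start.

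Mael encodes Maelstrom, a protein of the piRNA pathway, which uses small RNAs to silence transposons in germ cells. Its H3K4me3 peak, chr1:166238444-166239325, covered the start from -578 to +303 bp, with a fold of 2.42 and a −log10 q of 4.40. This was the lowest fold of all 12602 marked high-CpG genes. The peak was 882 bp wide. The ATAC-seq peak, chr1:166238194-166239098, was 905 bp wide, wider than in 43.0% of high-CpG genes, and 655 bp of it lay under the H3K4me3 peak. A start with an ATAC-seq peak of ordinary width thus carried the H3K4me3 peak of lowest fold in its class, though not of lowest −log10 q, which went down to 2.36. The nearest other H3K4me3 peak lay 14970 bp from the start, and the nearest other protein-coding start, that of Ildr2, 15392 bp.

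Sycp1 and Sycp3 encode parts of the synaptonemal complex, which joins homologous chromosomes in meiosis: SYCP1 forms its transverse filaments and SYCP3 belongs to the lateral elements. The H3K4me3 peak of Sycp1, chr3:102935033-102936307, had a fold of 5.88, a −log10 q of 20.7 and a width of 1275 bp, and covered the start from -207 to +1067 bp. Its ATAC-seq peak, chr3:102935363-102936274, was 912 bp wide and lay wholly within the H3K4me3 peak. Sycp3 had a stronger mark. Its H3K4me3 peak, chr10:88459386-88460630, had a fold of 13.8, a −log10 q of 100.3 and a width of 1245 bp, and covered the start from -183 to +1061 bp. Among peaks that covered the start of one of the 10 genes, that of Sycp3 had the highest fold. Sycp3 also had the most ATAC-seq peaks, 4 within 2 Kb, of which 1 of 556 bp covered the start, 1 of 647 bp lay in an intron from +621 bp, and 2 of 187 and 102 bp lay upstream. All 5 peaks also overlap the body of Chpt1, the gene within which Sycp3 lies, but the start of Chpt1 is 44504 bp away. Sycp3 had the lowest CpG ratio of the high-CpG germline genes, 0.672 at a GC content of 55%, on the limit of the class.

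Stag3 and Hormad1 belong to the meiotic chromosome axis. STAG3 is a cohesin subunit used in meiosis, and HORMAD1 is a HORMA-domain protein of unsynapsed axes. Stag3 had the strongest peak of the 10 genes, with a fold of 19.14, a −log10 q of 179.6 and a width of 1240 bp, but this peak, chr5:138278951-138280190, ended 50 bp upstream of the gene. It lay over the start of Gpc2, a glypican gene on the other strand whose start is 235 bp from that of Stag3, and also overlapped the predicted gene Gm43720, and its summit was at -423 bp. The 2 genes cannot be told apart as the source of this peak. A second H3K4me3 peak of Stag3, chr5:138280915-138281702, lay within an intron at +675 to +1462 bp, with a fold of 4.94 and a −log10 q of 15.2. That fold was within the range of the other germline genes. The start itself was covered by an ATAC-seq peak of 897 bp, chr5:138279713-138280609, and by no H3K4me3 peak, so that the H3K4me3 peaks lay on either side of the start, near which the CpG ratio was highest (0.991 at +100 bp).

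Hormad1 had a single H3K4me3 peak, chr3:95559674-95560507, with a fold of 4.32, a −log10 q of 18.2 and a width of 834 bp. The peak began 3 bp before the start and ran to +830 bp, with 775 bp of it in an intron. Its ATAC-seq peak, chr3:95559424-95560352, reached from -253 to +675 bp and was 929 bp wide. Hormad1 was thus accessible on both sides of the start and marked almost wholly downstream of it. The fold exceeded 0.47% of marked high-CpG genes and the ATAC-seq width exceeded 46.7% of high-CpG genes with a peak.

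Stra8 encodes a protein that responds to retinoic acid and is required for entry into meiosis. Its only H3K4me3 peak within 2 Kb, chr6:34921714-34922120, lay at +1551 to +1957 bp, wholly in an intron, with a fold of 4.08 and a −log10 q of 9.34. At 407 bp it was the narrowest strongest peak of the 9 marked genes, narrower than in all but 0.22% of marked high-CpG genes. An ATAC-seq peak of 186 bp, chr6:34920104-34920289, covered the start, and a wider one of 837 bp, chr6:34921621-34922457, held the whole H3K4me3 peak. The RefSeq start of Stra8 lies at +785 bp, and neither ATAC-seq peak nor H3K4me3 peak reached its 300-base promoter, which had a CpG ratio of 0.43 with 10 CpG. The CpG-rich stretch of Stra8 lay further downstream, with the ratio at or above 0.6 from +900 to +1650 bp, and the H3K4me3 peak began within it.

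Slc25a31 encodes an ADP/ATP carrier of the mitochondria of male germ cells, and Tex101 a glycoprotein of the germ cell surface. The H3K4me3 peak of Slc25a31, chr3:40708551-40709777, covered the start from -304 to +922 bp, with a fold of 3.72, a −log10 q of 6.99 and a width of 1227 bp. It was about as wide as that of Sycp3, which had a fold of 13.8. Its ATAC-seq peak, chr3:40708492-40709352, was 861 bp wide, and 802 bp of it lay under the H3K4me3 peak. Somatic carriers of the same family had stronger marks, with a fold of 26.1 for Slc25a4 and 33.5 for Slc25a5. The same held for Ddx3x at 51.4, beside Ddx4, and for Stag2 at 36.0, while Stag1, whose annotated start is intermediate-CpG, had a fold of 6.30.

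Tex101 had no H3K4me3 peak within 2 Kb, and the nearest one lay 37481 bp away. Its only ATAC-seq peak there, chr7:24674598-24674841, was 244 bp wide, lay in an intron at +1834 bp and held 1 CpG. The start had a CpG ratio of at most 0.377. However, another annotated start of Tex101, the one in the RefSeq table, lies at +4625 bp. The promoter there, printed above, had a CpG ratio of 0.70 with 19 CpG, and an ATAC-seq peak of 264 bp, chr7:24672001-24672264, covered 264 of its 300 bases. The CpG class at that start was high, with a ratio of 0.632 and a GC content of 55.2%, close to both limits. No H3K4me3 peak lay within 2 Kb of that start either, and the nearest was 32856 bp away. Among high-CpG genes 0.988% had an ATAC-seq peak alone.

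**Figure D3:**
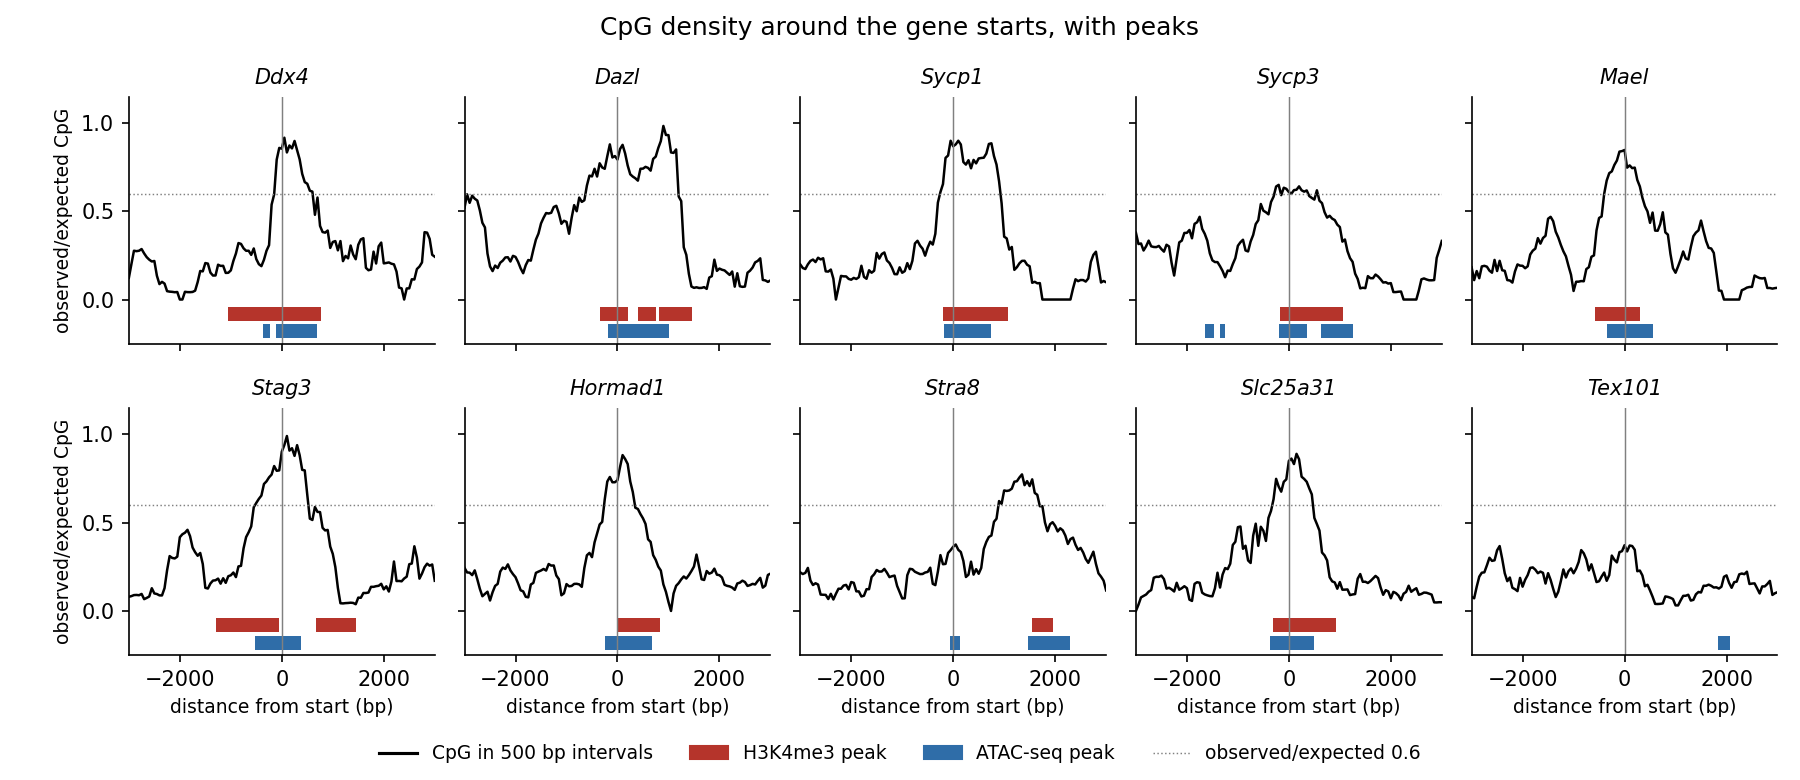
Observed/expected CpG ratio (vertical) in intervals of 500 bp around each gene start, against the distance from the start in bp (horizontal), with H3K4me3 peaks (red bars) and ATAC-seq peaks (blue bars) drawn under the curve and the ratio of 0.6 as a dotted line. The curve rises above 0.6 at or beside the start in all genes but Stra8, where it does so from +900 bp, and Tex101, where it stays below, and in Stag3 and Dazl the strongest red bar lies over one edge of the CpG-rich stretch.

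The position of the marks relative to the CpG-rich stretch differed among the genes. In intervals moved by 50 bp, the centres with a CpG ratio of at least 0.6 ran without a break for 1750 bp at Dazl, 1150 bp at Sycp1 and 1000 bp at Stag3, and for 550 to 750 bp at Ddx4, Mael, Hormad1, Stra8 and Slc25a31. Sycp3 stayed close to the limit, with a highest value of 0.649. The ratio was highest within 200 bp of the start in 7 of the 9 high-CpG genes, and at +1350 bp in Stra8 and +900 bp in Dazl. An ATAC-seq peak covered the start of 9 of the 10 genes, against 62.5% of all protein-coding genes, and an H3K4me3 peak that of 7, against 61.1%. Both of these backgrounds span all CpG classes, whereas 9 of the 10 genes had a high-CpG start, so they are not matched. The strongest H3K4me3 peak covered the start in 6 of the 9 marked genes, where 94.2% of marked high-CpG genes had it there. Its summit was downstream of the start in 8 of the 9, near the 86.1% of marked high-CpG genes.

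The wider set of germline genes, 96 others in lists made from their known roles, was described in the same way. An H3K4me3 peak was present at 64 of the 96, an ATAC-seq peak at 77 and both at 63, shares near the 66.4%, 74.6% and 65.9% of all protein-coding genes. Of the 62 with a high-CpG start, 56 had H3K4me3, where 98.8% of high-CpG genes had it, and all 62 had an ATAC-seq peak, where 99.7% had one. The fold of these 56 ranged from 2.92 to 64.0, with a median of 13.9, and was in the lowest 10% of high-CpG genes for 31 (55.4%). Among the 26 with an intermediate-CpG start, 7 carried an H3K4me3 peak, against 40.3% of all intermediate-CpG genes, and 13 an ATAC-seq peak, against 59.2%.

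**Figure D4:**
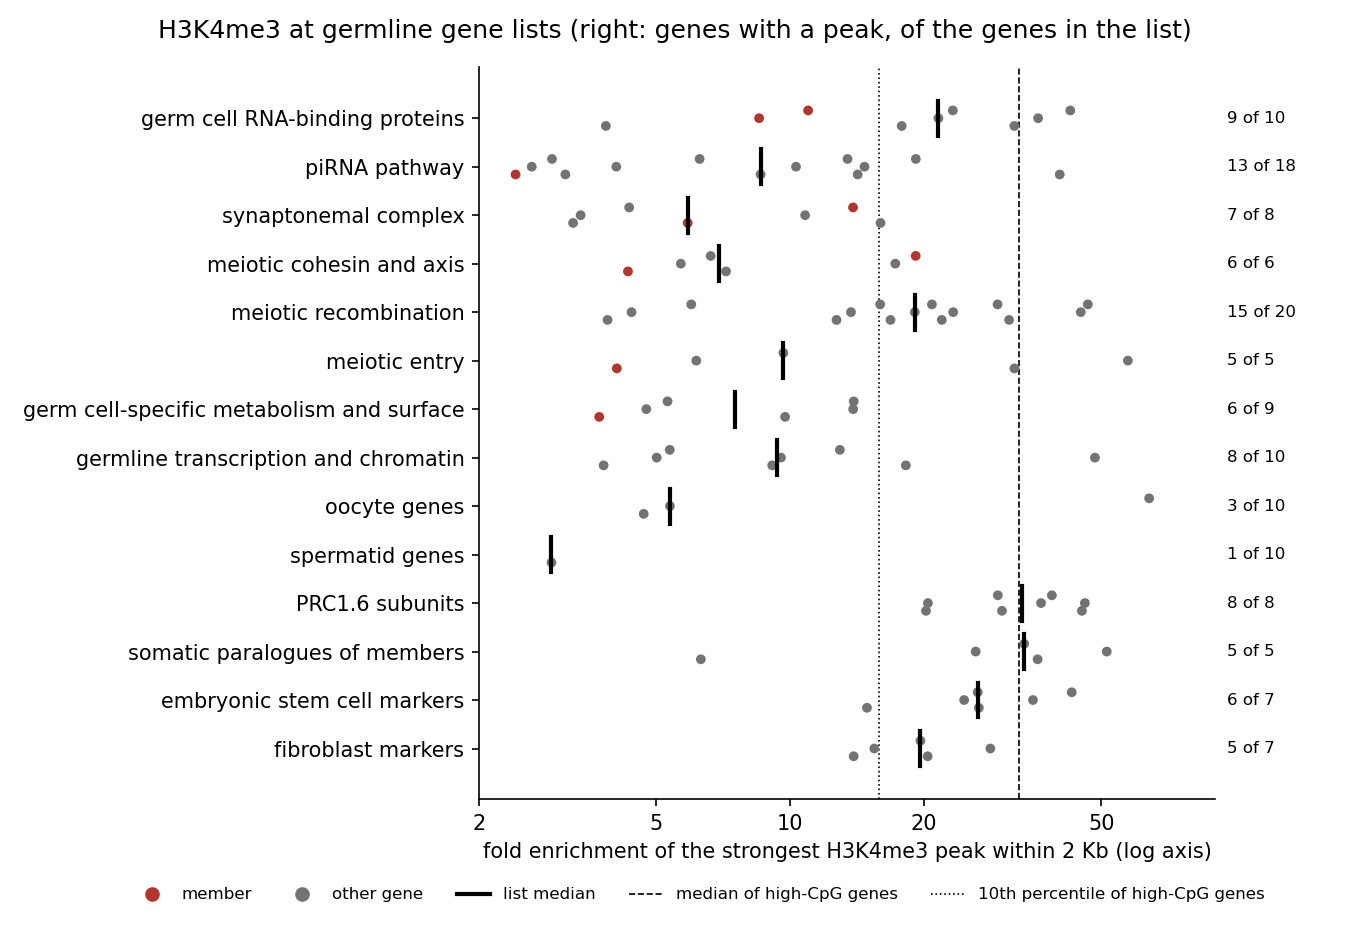
Fold enrichment of the strongest H3K4me3 peak within 2 Kb (horizontal, log axis) for the genes of each list that carry one. Red points are the germline genes described above, grey points other genes, and thick bars list medians; the dashed and dotted lines are the median and the 10th percentile of high-CpG genes, 32.7 and 15.8. The medians of the germline lists lie left of the dashed line, as do those of the embryonic stem cell markers (26.5) and fibroblast markers (19.6), and those of the PRC1.6 subunits and somatic paralogues lie on or right of it.

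Most marked genes of the synaptonemal complex and piRNA lists had low folds. The counts of each list include those of the 10 genes that belong to it. Some lists also hold marked genes of other CpG classes. The limit of the lowest 10% is that of high-CpG genes, and 17.6% of marked protein-coding genes of all classes fall under it. Of the 8 synaptonemal complex genes, 7 carried an H3K4me3 peak, with a median fold of 5.88, and 6 of these were in the lowest 10% of high-CpG genes. Sycp2, a lateral element protein, had a fold of 3.25 and Syce1, a central element protein, one of 3.38, while Syce2 reached 16.0 and Syce3 had no peak but an ATAC-seq peak of 410 bp. Of the 18 piRNA pathway genes, 13 carried an H3K4me3 peak, with a median of 8.58 and 11 in the lowest 10%. Mael was the lowest of them and Tdrd5, a Tudor-domain protein, the highest at 40.3. All 6 genes of the meiotic cohesin and axis list carried a peak, with a median of 6.90. Rec8, the meiotic kleisin, had a fold of 7.18, Smc1b, whose start is 114 bp from that of Ribc2, one of 6.63, Rad21l one of 5.68 and Hormad2 one of 17.2.

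The lists of germ cell RNA-binding proteins and of recombination reached higher. Of 10 RNA-binding protein genes, 9 carried an H3K4me3 peak, with a median of 21.5, from Stk31 at 3.85 to Nanos3 at 42.6, and Nanos2 had neither peak. Of 20 recombination genes, 15 carried one, with a median of 19. Folds ran from Spo11, the topoisomerase-like protein that makes meiotic breaks, at 3.89 to the MutS homologue Msh4 at 46.6. The Msh4 peak was 6743 bp wide, and the nearest other protein-coding start lay 6871 bp from that of Msh4. All 5 genes of meiotic entry carried an H3K4me3 peak. Stra8 was lowest, with Meioc at 6.15, Zglp1 at 9.66, Meiosin, the partner of STRA8, at 31.9 and Ythdc2 at 57.3. The start of Meiosin is 1491 bp from that of Fbxo46. The lists of germ cell metabolism and surface and of germline transcription and chromatin had medians of 7.52 over 6 of 9 genes and 9.32 over 8 of 10, and all 6 of the former and 6 of the latter were in the lowest 10%. Taf7l had a fold of 5.01 and Brdt, a bromodomain protein of the testis, one of 3.81, while Taf4b reached 48.4.

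The lists of spermatid and oocyte genes held few high-CpG starts, and in the intermediate-CpG and low-CpG classes 40.3% and 6.7% of all genes carried H3K4me3. Of 10 spermatid genes, which include the protamines Prm1 and Prm2 and of which 7 had an intermediate-CpG and 3 a low-CpG start, Tnp2 alone carried an H3K4me3 peak, with a fold of 2.90, and 2 carried an ATAC-seq peak. Of 10 oocyte genes, of which 7 had an intermediate-CpG, 2 a low-CpG and 1 a high-CpG start, 3 carried an H3K4me3 peak. Gdf9, whose start is 192 bp from that of Uqcrq, had a fold of 64.0, while Zp3 had one of 5.37 and Nobox one of 4.69. The 8 PRC1.6 subunit genes, which are expressed in many cell types, all carried both peaks, with folds of 20.2 for E2f6 to 45.9 for Rybp and a median of 33.3, and none was in the lowest 10%. Mga had a fold of 20.4, Max 29.3, L3mbtl2 29.9, Pcgf6 36.6, Tfdp1 38.7 and Rnf2 45.2.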

How the data were processed

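The authors processed H3K4me3 ChIP-seq reads with the ENCODE histone pipeline at default parameters and deposited 1 list of replicated peaks with positions, a score, a fold enrichment (a ratio over background), and −log10 p and q values, of which the p was not used. They mapped ATAC-seq reads to mm10 with bowtie 1.1.2, called peaks with MACS2 2.1.1.20160309 after a shift of 4 bp and kept, with bedtools 2.27.1, pooled peaks found in both replicates, deposited as positions only. The depth is not known. The genome build of the H3K4me3 list is not given in the sources used here, and its positions lie within mm10.

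Positions were made 1-based and compared with GENCODE M21 starts. Per gene, the H3K4me3 peak of highest fold and the widest ATAC-seq peak within 2 Kb were used. A percentile is the share of reference genes with a lower value. The calls were tested on simulated data, and bedtools 2.31.1 gave the same genes. Python 3.11.15, pandas 2.3.3 and numpy 2.4.6 were used.

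All 10 genes were described in full. Of wider lists, the genes with the highest and lowest fold, genes of lists with 10 or fewer genes, somatic paralogues and neighbours within 2 Kb could be named. The genes and lists were chosen with earlier results of these data known. Meiosin is Gm4969 in GENCODE M21. The alternatives were other distances, starts, peak thresholds, CpG classes and backgrounds.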

Additional observations from a re-analysis of the deposited data

How the results depend on the processing

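No paired analysis was possible because each list stands for both replicates, and no replicate could be left out for the same reason. With H3K4me3 peaks of a −log10 q of at least 20 alone, 5 of the 10 genes kept a peak, against 63.8% of protein-coding genes. That share spans all CpG classes, and over marked high-CpG genes the 10th percentile of −log10 q was 149.3, well above the limit. Mael, Hormad1, Stra8, Slc25a31 and Tex101 had no such peak. Under the other distances, starts and thresholds tried, 7 to 9 genes had H3K4me3, 9 or 10 an ATAC-seq peak and 7 to 9 both. Stag3 and Stra8 had no H3K4me3 peak when it had to cover the start, Stra8 none within 1 Kb and Mael none at a −log10 q of at least 5. With the RefSeq start, an alternative chosen after seeing the data, 9 genes had H3K4me3 and 10 an ATAC-seq peak. High-CpG starts were 7 with a ratio above 0.75 between 700 bp upstream and 200 bp downstream, without Sycp3 and Stra8, and 9 with no GC requirement. The backgrounds were 67.7% (H3K4me3) and 75.9% (ATAC-seq) over autosomal genes and 98.8% and 99.7% over high-CpG genes. Depth is unknown, so an absent peak is a peak not called.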

Other observations

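Very weak H3K4me3 at a high-CpG start was rare among protein-coding genes. Of the 12602 marked high-CpG genes, 138 (1.1%) had a strongest fold at or under the median of the germline genes described above, a limit set by those genes. Of the 138, 16 (11.6%) are listed germline genes, 5 of the 10 among them, and these 16 are 24.6% of the 65 listed germline genes with a high-CpG start and a peak. Those 5 lie at or under the limit by its definition, as it is the median of the 9 marked genes. Both shares are raised by them. A further 153 high-CpG genes had no H3K4me3 peak. Of these, 6 (3.92%) are listed germline genes, or 8.45% of the 71 with a high-CpG start. They were Asz1, Tdrd9, Syce3, Spata22, Tex11 and Dpep3, named after their values were seen. All 6 carried an ATAC-seq peak, as did 126 of all 153, so this does not set them apart. Spata22 had one of 1361 bp, and the others measured 133 to 569 bp.

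A wide ATAC-seq peak beside a weak H3K4me3 peak was not confined to the germline lists. Among 12585 high-CpG genes with both peaks, 600 (4.77%) had an ATAC-seq peak of at least 1173 bp, the upper quartile of widths, and a fold of at most 23.7, the lower quartile. Dazl was the 1 of the 10 genes among them, and 7 of the 56 other listed germline genes were too, a higher share than 4.77%. The median fold of those 56 was 13.9, already under the limit of 23.7.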
